A study of Penicillium oxalicum with 6 samples.

Results

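The genes described here are those whose ribosome footprint level was at least 4 times higher in a PoxTMA7 knockout of the filamentous fungus Penicillium oxalicum than in its wild type. They number 85 of the 8909 gene identifiers measured. The level is the deposited FPKM, by its name footprints scaled to gene length and library size, though the divisor per gene is not stated. A gene was taken when its mean FPKM over 3 knockout libraries was at least 40 and at least 4 times its mean over 3 wild-type libraries. In addition, every knockout value had to exceed every wild-type value. The members were thus chosen by their FPKM in the knockout and the wild type, and those values are given below as a description with no test. Of the 85, 8 were near-silent in the wild type, with a mean under 5 FPKM, and 77 were already translated there.

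Footprint libraries were made from mycelia of the knockout (n = 3) and of the wild type (n = 3). After 24 h on 1% glucose, mycelia of both strains spent 24 h on 1% Avicel, which is microcrystalline cellulose. The titles of all 3 knockout libraries name PoxTMA7, while the genotype field names PoxTMA8 for replicate 2 and PoxTMA9 for replicate 3, and the titles were followed. Replicates are labelled as biological, and whether the knockout is 1 clone is not stated.

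Ribosome profiling sequences the short pieces of mRNA that a ribosome shields from nuclease, so a gene's footprint level reflects both how much of its mRNA is present and how densely ribosomes occupy it. TMA7 is named in yeast for its association with the translation machinery. Penicillium oxalicum secretes cellulases and other plant cell wall degrading enzymes, and cellulose induces many of the genes that encode them. No mRNA libraries were analysed here, so more mRNA and denser ribosomes on the same mRNA cannot be told apart for any gene below.

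The identifiers carry no gene names in the files, and 0 of the 8909, and so 0 of the 85, matched the 9964 genes of the given RefSeq table. What these genes encode, which of them is a cellulase gene or a transporter gene, and the level of PoxTMA7 itself were therefore not analysed here, and the label of mycelia could not be set against marker genes. The identifiers are used as names only.

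The knockout libraries held 1135893 to 1406123 footprints and the wild-type libraries 416171 to 820027, as read from the steps between FPKM values. A gene near 0 is thus measured more coarsely in the wild type. Summed FPKM was 977106 on average in the knockout and 1022894 in the wild type, a wild-type over knockout ratio of 1.05 that enters every fold below. No label or header says what the authors divided by per gene, so the order of genes by FPKM is an order by the deposited value.

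**Figure D1:**
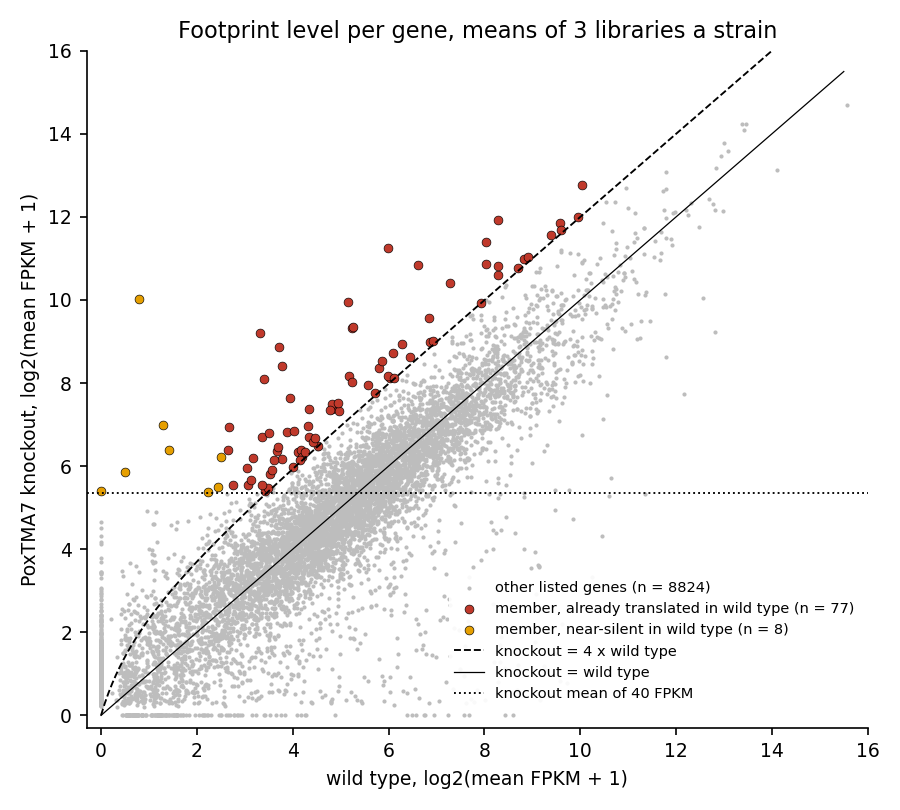
Mean FPKM of every listed gene in the PoxTMA7 knockout (y axis) and in the wild type (x axis), both as log2(mean FPKM + 1), means of 3 libraries a strain. The 77 already translated members (red) and the 8 near-silent members (orange) lie on or above the dashed line of 4 times the wild type and the dotted line of 40 FPKM, as the rule requires, and members reach from 40.5 to 6941 FPKM in the knockout.

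The rule took 0.954% of all listed genes. Beside it, 19.2% of listed genes had every knockout value above every wild-type value, and 16.7% of the 7703 genes tested were called higher in the knockout (limma on log2(FPKM + 1), Benjamini-Hochberg adjusted p under 0.05). In either direction 38.9% were called. All 85 members were among the genes called higher, and since the choice of members used the same contrast, nothing is read from that count. No gene reached both the level and the fold with overlapping strains. Below the level of 40 FPKM stood 236 further genes with a 4-fold difference and no overlap, and between 2-fold and 4-fold stood 301 genes at 40 FPKM or more with no overlap. With the strains exchanged, the same rule took 222 genes, so large reductions were more numerous than large increases at these thresholds on the deposited FPKM. Scaling by library total, median ratio or upper quartile gave 96, 98 or 120 members, and the exchanged count was not repeated under these scalings.

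Together the 85 genes held 6.16%, 6.12% and 6.17% of all FPKM in the 3 knockout libraries, against 0.907%, 0.930% and 0.919% in the 3 wild-type libraries. Their summed FPKM was 60077 ± 212 in the knockout and 9398 ± 117 in the wild type (SD, n = 3 each). The sums varied little between libraries of a strain. Of the knockout sum, the 8 genes with the highest knockout mean made up 30049 ± 433 FPKM, against 4871 ± 107 in the wild type. The 8 near-silent genes added 1504 ± 35.1 FPKM in the knockout, against 17.0 ± 3.56 in the wild type.

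**Figure D2:**
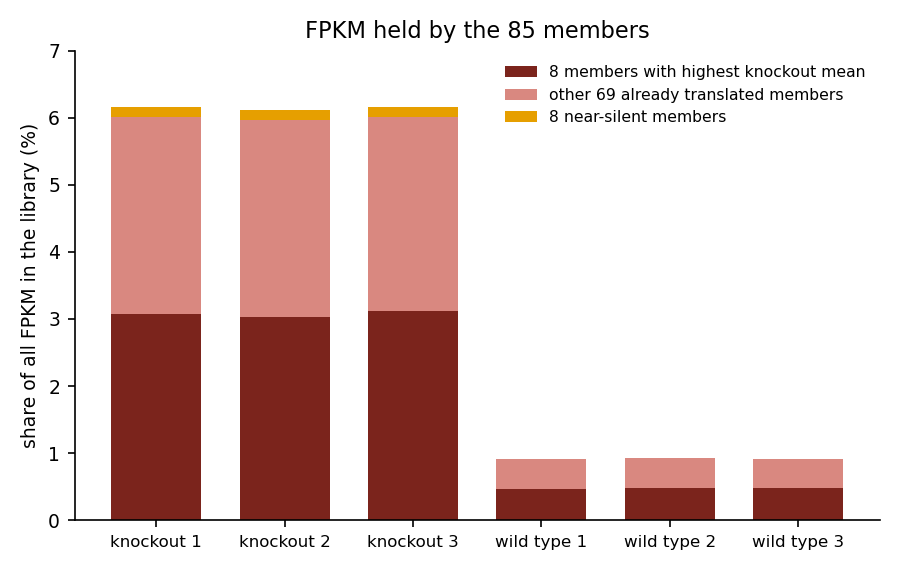
Share of each library's summed FPKM, in percent, that the 85 members took in the 3 knockout libraries (left) and the 3 wild-type libraries (right), stacked by the 8 members with the highest knockout mean, the other 69 already translated members and the 8 near-silent members. The knockout bars stand between 6.12% and 6.17% and the wild-type bars between 0.907% and 0.930%.

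The already translated members spread over more than 2 orders of magnitude in both strains. Their means ran from 41.2 to 6941 FPKM in the knockout, with a median of 216.3, and from 5.31 to 1043 FPKM in the wild type, with a median of 27.1. Most differences were moderate: of all 85 members, 36 had a fold from 4 to 6, 19 from 6 to 8, 15 from 8 to 16 and 7 from 16 to 32, and 8 were above 32 or at 0 in the wild type, 5 of them near-silent there. The 11 members with a wild-type mean of at least 300 FPKM had folds of 4.12 to 12.5 (median 4.55). Among the 34 members with a wild-type mean from 5 to 20 FPKM the folds were 4.16 to 66.2 (median 6.71). The minimum level in the knockout favours larger folds where the wild type is low, so this order is partly built into the rule.

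Of the 143 genes with a knockout mean of at least 1000 FPKM, 17 were members, whereas 1 member, POX_5g07120, was among the 152 genes at that level in the wild type. POX_5g07120 had the highest level of the set, 6959, 6993 and 6872 FPKM in the knockout, against 1002, 963.1 and 1164 FPKM in the wild type. Its fold of means was 6.66, and its 3 knockout libraries differed by less than the wild-type ones. By mean it ranked 11 among all listed genes in the knockout and 147 in the wild type.

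POX_1g00573 followed with 4034, 3878 and 4342 FPKM in the knockout, against 1001, 921.1 and 1050 FPKM in the wild type. It started from nearly the same wild-type level as POX_5g07120 but had a smaller fold of 4.12. POX_6g08026 had 3867, 3811 and 3985 FPKM in the knockout, against 314.1, 328.3 and 291.4 FPKM in the wild type, a fold of 12.5. Its rank went with that, 31 in the knockout and 568 in the wild type.

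The next members by knockout level, POX_2g03207, POX_7g09819 and POX_4g06586, resembled each other. POX_2g03207 had 3808, 3574 and 3648 FPKM in the knockout, against 767.1, 756.4 and 764.1 FPKM in the wild type. For POX_7g09819 the knockout values were 3462, 3319 and 3068 FPKM, against 733.6, 826.0 and 764.9 FPKM in the wild type. These genes differed by 4.82-fold and 4.24-fold, and POX_4g06586 by 4.55-fold, with 2963, 2985 and 3144 FPKM in the knockout, against 629.1, 726.2 and 641.9 FPKM in the wild type.

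Larger differences at high level were seen for POX_6g08756 and POX_6g08739. POX_6g08756 had 2593, 2697 and 2823 FPKM in the knockout, against 252.6, 298.7 and 229.6 FPKM in the wild type, a fold of 10.4. POX_6g08739 had 2385, 2350 and 2587 FPKM in the knockout, against 58.3, 66.0 and 64.5 FPKM in the wild type, a fold of 38.8. The libraries of a strain lay close together for both genes. POX_6g08739 rested on 9610 footprints in the knockout and 120 in the wild type, and its rank was 51 in the knockout and 2426 in the wild type.

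**Figure D3:**
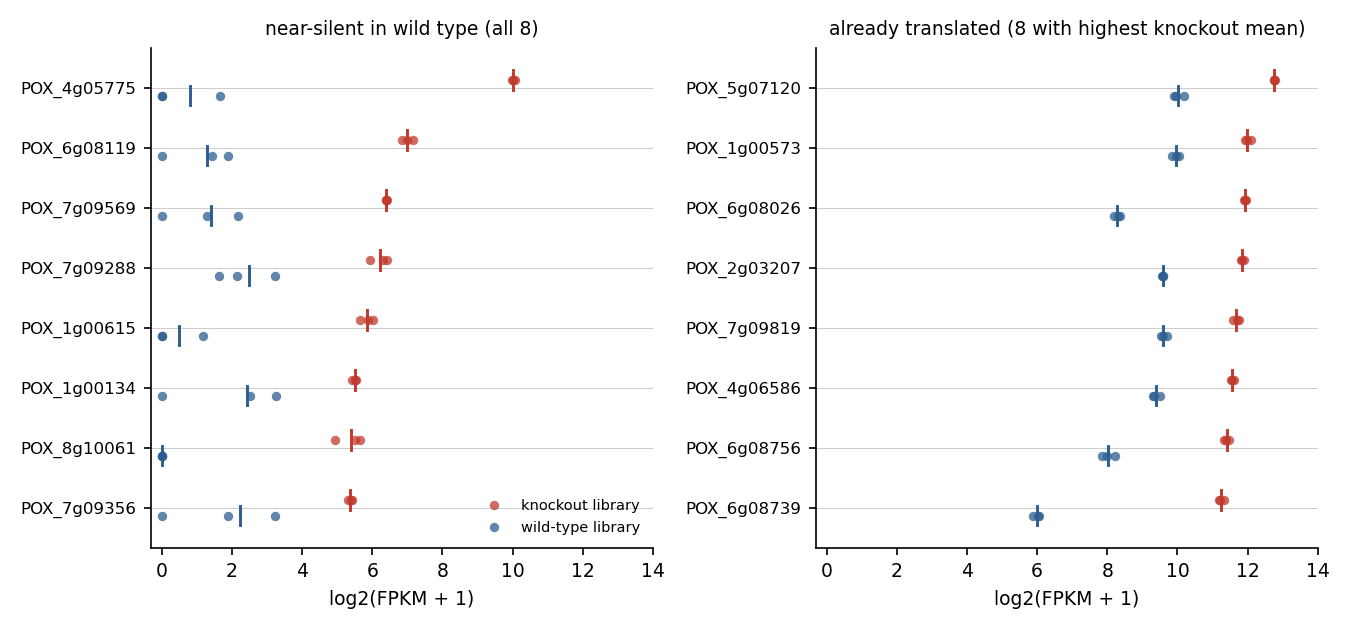
Level in each library as log2(FPKM + 1) (x axis) for the 8 near-silent members (left) and the 8 already translated members with the highest knockout mean (right). Points are single libraries, knockout in red above wild type in blue, and ticks are log2(mean + 1) of 3 libraries. POX_4g05775 stands at 1005 to 1080 FPKM in the knockout and at 0 to 2.19 FPKM in the wild type.

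The largest folds among already translated members belonged to genes of low wild-type level, apart from POX_6g08739. POX_4g05265 had a fold of 66.2, with 593 FPKM, 569 FPKM and 612 FPKM in the knockout, against 14.2 FPKM, 6.35 FPKM and 6.21 FPKM in the wild type. The wild-type values came from 11, 6 and 3 footprints. POX_8g10080 had 470.8, 479.5 and 444.7 FPKM in the knockout, against 9.33, 12.2 and 14.9 FPKM in the wild type, a fold of 38.2. Its wild-type level rested on 18 footprints, and the ratio of pooled footprints, scaled for depth, had limits of 24.8 and 66.5 from counting error alone (95%, exact).

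Over the 3 wild-type libraries, the 77 already translated members had at least 7 footprints each and the near-silent members 0 to 11, so the classes overlap. By definition, the near-silent members combine a wild-type mean under 5 FPKM with a knockout mean of at least 40 FPKM. POX_4g05775 was by far the highest of them, at 1025, 1005 and 1080 FPKM in the knockout, against 0, 0 and 2.19 FPKM in the wild type. That is 1308, 1422 and 1716 footprints in the knockout and 0, 0 and 1 in the wild type. It ranked 138 among all listed genes in the knockout and 7715 in the wild type.

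The other near-silent members reached at most 141.3 FPKM in any knockout library. POX_6g08119 had 114.4, 141.3 and 124.9 FPKM in the knockout, against 1.68, 0 and 2.69 FPKM in the wild type. Its 444 knockout and 2 wild-type footprints set the ratio, scaled for depth, at 107.8, with counting limits of 29.7 and 892.7 (95%, exact). POX_7g09569 had 82.2, 82.3 and 85.1 FPKM in the knockout, against 1.44, 3.53 and 0 FPKM in the wild type. The knockout values of this gene were close to each other, with 100, 111 and 129 footprints, while the wild type had 1, 3 and 0.

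POX_7g09288 had 60.7, 84.1 and 77.7 FPKM in the knockout, against 2.10, 3.44 and 8.41 FPKM in the wild type, where it rested on 11 footprints. POX_1g00615 had 49.4, 64.1 and 57.7 FPKM in the knockout, against 0, 1.24 and 0 FPKM in the wild type. That single wild-type footprint against 222 in the knockout gave the ratio counting limits of 19.1 and 4276 (95%, exact). POX_1g00134 had 45.8, 42.1 and 45.0 FPKM in the knockout, against 0, 8.49 and 4.75 FPKM in the wild type.

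POX_8g10061 was the only member at 0 in all 3 wild-type libraries. In the knockout it had 49.0, 44.2 and 29.7 FPKM, from 41, 41 and 31 footprints, and it was at least 18.3-fold higher when 3 footprints over the 3 wild-type libraries are taken as the floor. By the counting limits used for the other members (95%, exact), the lower limit of its ratio was 14.6. POX_7g09356 had 41.3, 41.6 and 38.5 FPKM in the knockout, against 8.40, 0 and 2.68 FPKM in the wild type. The folds of the near-silent members depended on single wild-type libraries. POX_7g09356 had a fold of 10.95 with all libraries and of 30.2 without wild-type replicate 1, and POX_1g00134 of 10.0 and of 18.6 without wild-type replicate 2. For POX_7g09569 the fold was 50.2, and 115.6 without wild-type replicate 2. POX_7g09288 stood at 15.9-fold, and at 26.8-fold without wild-type replicate 3. POX_6g08119 stood at 87.1-fold, at 151.0-fold when wild-type replicate 3 was left out and at 58.1-fold when replicate 2 was. The fold of 1420 for POX_4g05775 became 946.7 when wild-type replicate 1 or 2 was left out. Its only wild-type footprint was in replicate 3, without which it has no fold, and the ratio of pooled footprints, scaled for depth, had counting limits of 387.2 and 85274 (95%, exact).

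Members close to the thresholds were little different from genes just outside. The 2 members just above 4-fold were POX_4g05387, at 88.4 ± 6.67 FPKM in the knockout and 22.0 ± 10.7 FPKM in the wild type, and POX_1g01655, at 975.6 ± 48.6 FPKM in the knockout and 242.8 ± 16.6 FPKM in the wild type (SD, n = 3 each). Just below it were POX_3g04361, at 3.95-fold, and POX_7g09494, at 3.92-fold. By level, POX_7g09356 and POX_8g10061, at 40.5 and 40.9 FPKM in the knockout, were the lowest members. POX_5g07240 and POX_6g08609, with knockout means of 39.2 and 39.1 FPKM and folds of 7.55 and 4.56, stood just outside.

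The spread between replicates was small in the knockout and wide in the wild type. Over the members, the coefficient of variation of FPKM between the 3 libraries of a strain had a median of 6.32% in the knockout and of 29.1% in the wild type. Counting error alone gives a median of 6.66% in the knockout. That value is calculated from footprint numbers, while 6.32% is an observed spread over 3 values. The measures are unlike, so they do not show that members varied by counting error only. The 3042 other genes with a knockout mean of at least 40 FPKM had medians of 9.55% in the knockout and 12.5% in the wild type. They were not matched to the members by footprint number, so these medians do not show that members varied less in the knockout. The demand that the strains do not overlap removed no gene at this level and fold. A wide wild-type spread goes with few footprints: 49 of the 85 members had under 10 footprints in at least 1 wild-type library. The median member had 681 footprints over the knockout libraries and 38 over the wild-type libraries. The gap between the strains comes from the same 6 values that the rule used, and is given as a description. In 51 of 85 members the lowest knockout value was at least 4 times the highest wild-type value, and in 84 it was at least 2 times as high. The exception was POX_6g08516, chosen for mention after its values were seen, with 37.5 FPKM in the lowest knockout library and 20.3 FPKM in the highest wild-type library. In 10 members the coefficient of variation in the knockout exceeded 20%.

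Since all libraries took part in the choice, the rule was also applied to the libraries of 2 replicate numbers and the chosen genes were read in the libraries of the third, which that choice had not used. With replicate 1 left out, 89 genes were chosen, and 67 of them (75.3%) were at least 4-fold higher in the left-out knockout library than in the left-out wild-type library. For replicate 2 these numbers were 69 of 84 genes (82.1%), and for replicate 3 they were 71 of 94 (75.5%). With the level of 40 FPKM added, the counts were 67, 68 and 67, where 1.14%, 1.14% and 1.11% of all listed genes reached both in the same left-out pair. All chosen genes but 1 were higher in the left-out knockout library, the exception being POX_4g05996, at 30.6 FPKM in knockout replicate 3 and 31.4 FPKM in wild-type replicate 3. The shares of all listed genes that were higher, or 4-fold higher without the level, were not counted for these pairs. With 1 library a strain in the left-out pair, the shares of chosen genes carry no test.

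The median fold was smaller in the left-out pair than in the pairs that chose the genes, 5.55 against 6.57 for replicate 1, 6.25 against 6.50 for replicate 2 and 5.36 against 6.05 for replicate 3. How many genes kept the 4-fold difference went with their level. Over the 3 rounds, in which most genes recur, it was 51 of 53 choices (96.2%) at a knockout mean of at least 1000 FPKM, 101 of 115 (87.8%) from 100 to 1000 FPKM and 55 of 99 (55.6%) from 40 to 100 FPKM. Choices near-silent in the wild type kept it in 21 of 24 (87.5%), and choices already translated there in 186 of 243 (76.5%). The same shares over all listed genes of these levels and classes were not counted, so these numbers are a description only. In the pairs that chose them, near-silent choices had median folds of 72.8, 39.5 and 26.5 with replicates 1, 2 and 3 left out. Already translated choices had 6.20, 6.38 and 5.47. Near-silent choices combine at least 40 FPKM with under 5 FPKM, which sets a large fold, so this order is partly built into the classes. In the left-out pairs, near-silent choices had median folds of 31.0, 12.2 and 14.4 for replicates 1, 2 and 3, below those in the choosing pairs. Already translated choices had 5.55, 6.01 and 5.19 there. Choices with no wild-type footprint in the libraries compared have no fold and enter no median.

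**Figure D4:**
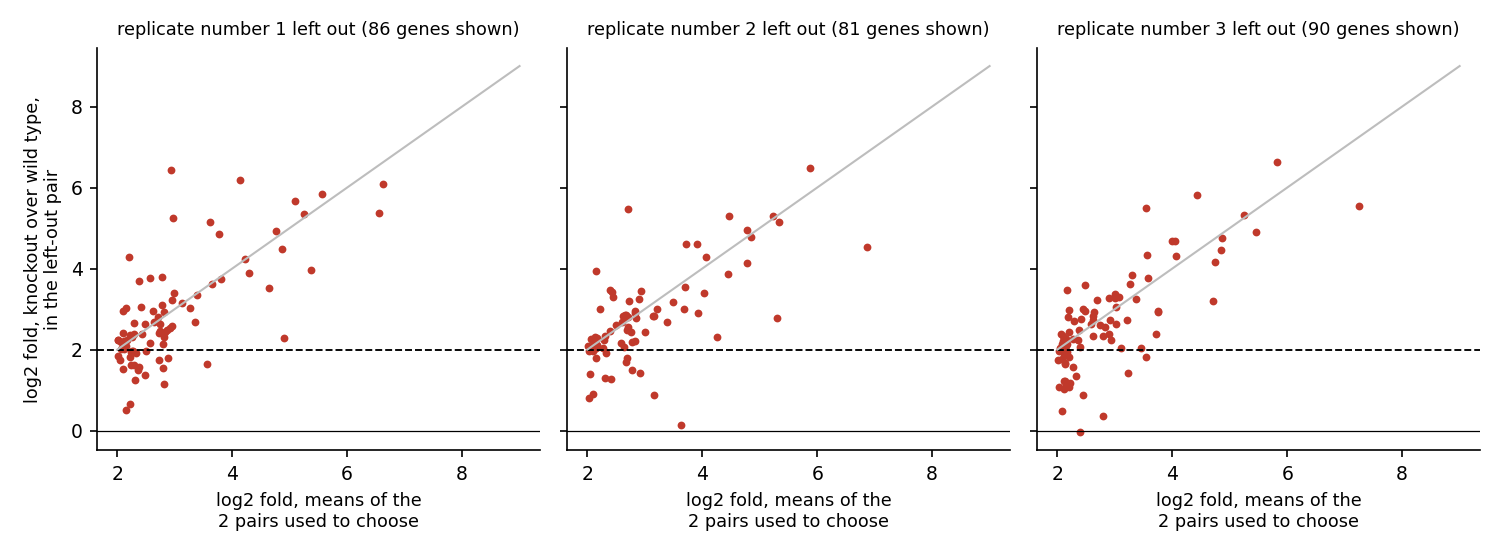
Log2 fold, knockout over wild type, in the pair of libraries left out (y axis) against the log2 fold of the 2 pairs that chose the genes (x axis), for each left-out replicate number. Points are genes with a wild-type value above 0 on both axes, the dashed line marks 4-fold, the grey line equal folds and the thin line no difference. Of the chosen genes, 67 of 89, 69 of 84 and 71 of 94 reached 4-fold in the left-out pair, in the order of replicate numbers 1 to 3, including genes at 0 in the wild type that cannot be drawn.

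Position in the identifier order was not used by the rule. The files hold no coordinates, so consecutive identifiers are neighbours in the list only. The members were spread over the identifier prefixes 1 to 8, at 0.628% of listed genes for prefix 2 (9 of 1432) to 1.81% for prefix 7 (14 of 775), and 15 of 1033 (1.45%) carried prefix 6. The 10 members of prefix 5 summed to 10360 FPKM in the knockout and 1655 FPKM in the wild type, and the 15 of prefix 6 to 12373 FPKM in the knockout and 1250 FPKM in the wild type.

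Of the 85 members, which are 0.954% of listed genes, 12 (14.1%) were next to another member, in 6 pairs and no longer stretch. With the strains exchanged, 69 of the 222 genes taken (31.1%) were next to one another and their longest stretch held 12 identifiers. The exchanged set is larger, which alone brings more of its genes side by side, and neither share was tested. Of the 15 non-member identifiers directly beside the 8 members with the highest knockout mean, all had a knockout mean of at most 33.5 FPKM, where 64.9% of all listed genes were under 40 FPKM. Beside POX_5g07120, for example, POX_5g07119 averaged 0.937 FPKM in the knockout and 0.480 FPKM in the wild type, and POX_5g07121 averaged 5.28 FPKM in the knockout and 7.61 FPKM in the wild type.

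The 6 pairs differed in how alike their genes were. POX_2g03206 had 1943, 2044 and 2085 FPKM in the knockout, against 417.8, 473.3 and 473.9 FPKM in the wild type, a fold of 4.45 beside 4.82 for POX_2g03207. POX_3g03762 had 733.7, 720.8 and 816.5 FPKM in the knockout, against 130.6, 103.0 and 107.2 FPKM in the wild type, and its neighbour POX_3g03763 had 2031, 2046 and 2255 FPKM in the knockout, against 479.6, 441.6 and 526.2 FPKM in the wild type. The pair had folds of 6.66 and 4.38.

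POX_1g00668 stood at 1857, 1782 and 1850 FPKM in the knockout, against 98.3, 122.6 and 71.9 FPKM in the wild type, a fold of 18.8. Its neighbour POX_1g00667 had a lower level and a fold of 8.67, with 166.0, 165.9 and 166.1 FPKM in the knockout, against 15.7, 25.7 and 16.0 FPKM in the wild type. The pair POX_3g04473 and POX_3g04474 shared a fold, 6.45 and 6.43, at very different levels of 492.1 and 49.8 FPKM in the knockout, against 76.2 and 7.75 FPKM in the wild type. Without wild-type replicate 3, the fold of POX_3g04474 was 11.99. POX_2g03470 and POX_2g03471 averaged 276.2 and 160.6 FPKM in the knockout, against 64.8 and 30.2 FPKM in the wild type, folds of 4.26 and 5.31. POX_8g10078 averaged 420.4 ± 22.8 FPKM in the knockout and 67.1 ± 7.78 FPKM in the wild type (SD, n = 3 each), a fold of 6.27 beside 38.2 for POX_8g10080, the next identifier listed.

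Genes beside the members were set against all other genes. The 128 non-member neighbours with at least 1 FPKM in at least 3 libraries had a median log2 change of 0.11 on the scale of log2(mean FPKM + 1), knockout over wild type, against -0.09 for 7490 other genes. A change of at least 2-fold upward was seen in 21 of the 128 (16.4%), against 9.80% of the others, and downward in 17 (13.3%), against 14.5%. These shares describe genes that are not independent of each other, and no test was made.

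**Figure D5:**
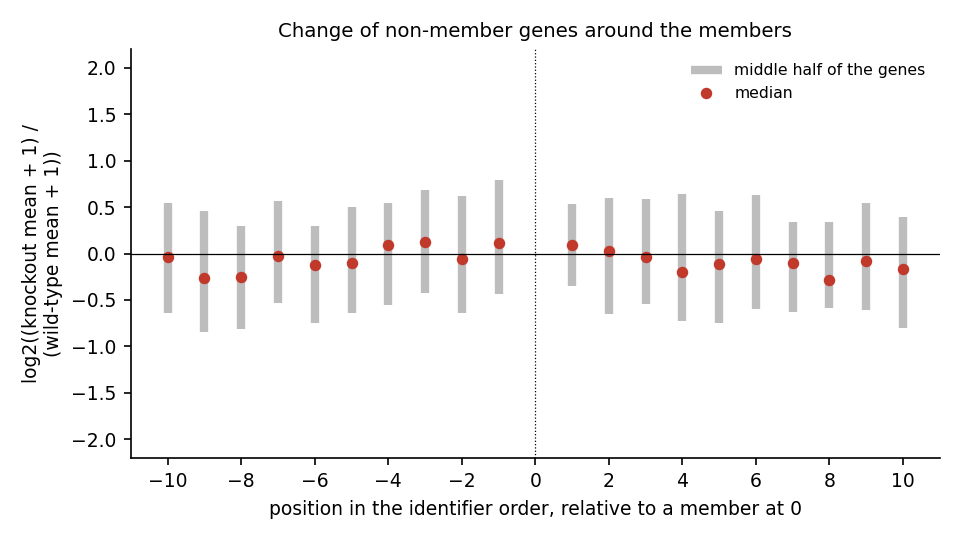
Change of non-member genes at 1 to 10 positions before and after a member in the identifier order, as log2((knockout mean + 1) / (wild-type mean + 1)). Points are medians over 60 to 76 genes and grey bars run between the lower and upper quartiles. The medians lie between -0.28 and 0.13 at every position shown.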

How the data were processed

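Ribosome footprints of 26 to 34 nucleotides were sequenced from 3 knockout and 3 wild-type libraries. The authors deposited 1 table of FPKM per library, named so in its header. Tools listed in the submitters' processing notes are STAR 2.7, cutadapt, DESeq2 and Bowtie, without their roles. No genome build, annotation or counting program is given in the sources used here. Members were chosen by the rule above on the deposited FPKM with no pseudocount (Python 3.11.15, pandas 2.3.3). The members, the lists and the rule for named genes (highest levels, largest folds, threshold neighbours and consecutive identifiers) were chosen with earlier results of these data known. As the unit is FPKM, the planned fallback was used over the whole table: limma 3.58.1 in R 4.3.3 with a mean-variance trend on log2(FPKM + 1), genes with at least 1 FPKM in at least 3 libraries, two-sided, Benjamini-Hochberg adjusted p under 0.05. It was tested on simulated data.

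Whole footprints were read from the FPKM, since each FPKM is the footprint count multiplied by 1 step for its library and 1 for its gene. Of 7855 genes above 0 in at least 3 libraries, 7852 were read, including all 85 members, within 0.05 of a footprint. This reading was also tested on simulated data. Intervals and floors cover counting error only. Between libraries of a strain, chi-square divided by its degrees of freedom was 1.59 to 2.50, above counting error. Across 4795 genes, libraries sharing a number had deviations from their strain means that correlated at 0.04, 0.03 and 0.15. Of the 6 libraries, 4 correlated best with the library of their own number. Summed FPKM was 977662 in knockout and 1022338 in wild-type replicate 1. It was 978164 and 1021836 for replicate 2, and 975491 and 1024510 for replicate 3. Both totals of a number add up to nearly the same value each time. Whether the libraries were scaled jointly by replicate number was not tested. The rule and the main limma fit used no pairing. Sequences, gene products and mRNA levels were not analysed here.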

Additional observations from a re-analysis of the deposited data

How the results depend on the processing

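The number of members is set by the thresholds. It was 149 at 3-fold, 141 of them already translated, and 57 at 5-fold, 49 of them already translated and with 6 genes next to another member. A knockout mean of at least 20 FPKM gave 26 near-silent members and 20 next to another, and a mean of at least 80 gave 3 near-silent ones. Within 5 positions of another member, a distance chosen after seeing the data, stood 19 members (22.4%), against 93 genes (41.9%) with the strains exchanged.

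Leaving out 1 library gave 80 to 91 members, 6 to 10 of them near-silent, 74 to 84 already translated and 12 to 14 next to another member, and 2430 to 2958 genes past the limma threshold. Under every such choice and every scaling, 65 of the 85 genes stayed members. Scaling gave 96 members by library total, 98 by median ratio and 120 by upper quartile, and all 85 stayed in each. These scalings multiply knockout over wild type by 1.05, 1.07 and 1.18, which raises every fold, so that members stayed says nothing of stability. With the upper quartile, tested genes had a median log2 change of 0.18 in place of -0.05. It moved 15 of 29 named folds by more than their replicate spread. It also turned the balance of limma calls to 1810 higher and 1224 lower, from 1288 and 1708. Thinning to the shallowest library gave 84 members, 78 of them shared. A pseudocount of 1 or 5 in the fold left 80 and 70, and a minimum of 20 knockout footprints left 85.

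With replicate number as a block, 3134 genes passed the limma threshold against 2996 without it, which changed no call of a member. Depth limits wild-type levels under 10 FPKM, which rest on few footprints.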

Other observations

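All 4 members of identifier prefix 8 lay within 16 listed identifiers, from POX_8g10061 to POX_8g10080, a stretch chosen after its values were seen. The members POX_8g10061, POX_8g10072, POX_8g10078 and POX_8g10080 had knockout means of 40.9, 87.2, 420.4 and 465.0 FPKM, against 0, 11.98, 67.1 and 12.2 FPKM in the wild type. The 12 other identifiers between them had knockout means of at most 34.3 FPKM, and 9 of them were under 10 FPKM in both strains. In POX_8g10064 every knockout value was above every wild-type value, at 12.8, 9.98 and 6.83 FPKM in the knockout, against 0, 0 and 0 FPKM in the wild type. Of all listed genes, 19.2% were higher in this way, and the share that was lower was not counted. In 2 of the 12 every knockout value was below every wild-type value. POX_8g10073 averaged 0.433 FPKM in the knockout and 15.4 FPKM in the wild type, and POX_8g10076 averaged 34.3 ± 11.7 FPKM in the knockout and 63.6 ± 12.9 FPKM in the wild type (SD, n = 3 each).

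In 3 stretches of at least 4 consecutive identifiers, every gene was at least 2-fold higher in the knockout with no overlap, and at least 1 was a member. That from POX_5g06949 to POX_5g06952 held 4 genes and 1 member, with a summed FPKM of 428.3 ± 15.4 in the knockout and 93.2 ± 12.4 in the wild type. Its member, POX_5g06952, held 394.4 FPKM of the mean sum in the knockout and 86.9 FPKM in the wild type, so the sum is mostly 1 gene. That from POX_7g09497 to POX_7g09501 held 4 genes and 1 member, with 570.1 ± 109.2 FPKM in the knockout and 134.6 ± 30.4 FPKM in the wild type, and 3.16-fold to 5.77-fold differences. There too the member, POX_7g09501, held most of the sum, 518.2 FPKM in the knockout and 120.4 FPKM in the wild type. The third, from POX_3g04896 to POX_3g04902, held 7 genes, 2 of them members. Its summed FPKM was 4919 ± 81.7 in the knockout and 1434 ± 32.8 in the wild type, with 2.04-fold to 4.23-fold differences. Its members, POX_3g04896 and POX_3g04898, held 70.3 and 1750 FPKM of the mean sum in the knockout, so most of that sum lay in non-members. These stretches were found after the data were seen and were not tested.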
